A study of Mus musculus with 60 samples.

Results

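Epithelial-to-mesenchymal transition (EMT) is the change in which cells held together in a sheet lose their junctions and become migratory mesenchymal cells. It is driven by a small set of transcription factors that repress E-cadherin and turn on mesenchymal genes, and the reverse process (MET) is known as an early step when fibroblasts are reprogrammed towards pluripotency. The mouse genes described here are 9 of the 56980 rows in each count table, taken by their symbols. They and the lists of other genes below were chosen with earlier results of these data known. The 9 are the Snail-family zinc finger repressors Snai1 and Snai2, the basic helix-loop-helix factors Twist1 and Twist2, the zinc finger and homeodomain repressors Zeb1 and Zeb2, the homeobox factor Prrx1, and the mesenchymal adhesion molecules Cdh2 (N-cadherin) and Cdh11 (OB-cadherin). Fibroblasts are mesenchymal cells and are known to express genes of this kind without having undergone a transition. All 9 were found and passed the filter on low counts in both tables.

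RNA sequencing counts came from 60 libraries of cultured mouse fibroblasts in 20 groups of 3. In the reprogramming table (36 libraries), tail tip fibroblasts carried a doxycycline-inducible cassette for Oct4, Sox2, Klf4 and c-Myc in the Col1a1 locus, and were either 4FJ_ERCC1_(d/-) (4F D/KO, male, 8 weeks), with 1 truncated and 1 null allele of the DNA repair gene Ercc1, or 4FJ_(+/-)_OCT4-GFP (4F WT, female, 22 weeks). Each line was sampled at days 0, 2 and 4 of doxycycline at 2 µg/ml, alone or with VC, which is ascorbic acid at 50 µg/ml and the GSK3 inhibitor CHIR99021 (CHIR-99201 in the labels) at 3 µM. In the inhibitor table (24 libraries), ERCC1_(d/-) tail tip cells (D/KO, female, 4 weeks) were left as control or given Repsox, Vactosertib, A83-01 or DMH-1, next to ERCC1_(+/+)_WT cells from tail tip and from skin (both female, 14 weeks) and 4FJ_(+/-)_OCT4-GFP tail tip cells labelled TGFB (female, 22 weeks). Repsox, Vactosertib and A83-01 inhibit the TGF-β type I receptor, and DMH-1 inhibits BMP type I receptors. Vactosertib is described as a dual compound that also acts on ALK2, a BMP receptor that DMH-1 targets. The 3 libraries of a group are samples of a single line, and nothing in the labels says that they came from separate animals, so p-values measure only the spread between these samples. Genotype, sex, age and line changed together in the reprogramming table, and genotype, age and line in the inhibitor table, and cannot be told apart there.

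Depth was 16538374 to 18484951 counts per library (reprogramming) and 17102639 to 30599138 (inhibitors). Of the induced factors, Pou5f1 (Oct4) followed the labels: it averaged 0.84 to 2.72 CPM (counts scaled to library size) in the day 0 groups and 34.3 to 119 CPM at days 2 and 4. Sox2, Klf4 and Myc are not reported here. Ercc1 itself averaged 14.2 CPM in 4F D/KO and 20.6 CPM in 4F WT cells at day 0, a called difference (-0.54 on the log2 scale), but 20.6 CPM in D/KO control libraries and 18.04 CPM in the tail tip WT controls, where no difference was called. Counts over the whole gene do not separate a truncated allele from an intact one, so they check the D/KO label of the inhibitor table in neither direction. Fibroblast markers (7 genes) summed to 19116 CPM or more in every library, and fell from 61194 to 90612 CPM at day 0 to 22018 to 23015 CPM at day 4 in 4F D/KO and from 34604 to 35749 to 24702 to 26286 CPM in 4F WT cells. Markers of endothelial cells (Pecam1, Cdh5, Kdr, Tie1 and Egfl7) summed to 701 to 752 CPM in 4F D/KO and 1.10 to 2.09 CPM in 4F WT libraries at day 0. The endothelial sum fell to 256 to 306 CPM by day 4 in 4F D/KO cells, whereas with VC it went from 246 to 293 CPM at day 0 to 142 to 177 CPM at day 2 and 474 to 670.2 CPM at day 4. It was 305 to 351 CPM in D/KO controls and 103 to 142 CPM in A83-01 libraries. Summed markers of leukocytes, mural cells, myogenic cells, chondrocytes and glial cells or melanocytes reached at most 146, 468, 84.3, 7.99 and 40.8 CPM in any library. Mural markers summed to 267 to 289 CPM in 4F D/KO and 45.96 to 51.1 CPM in 4F WT libraries at day 0 and to 365 to 432 and 128 to 148 CPM at day 4, and leukocyte markers to 12.8 to 13.4 and 75.6 to 146 CPM at day 0. The part of these markers in the results was not tested, and in bulk samples fewer cells of a type and less RNA per cell cannot be told apart. WT skin replicate 1 and Repsox replicate 2 stood apart from the other libraries of their groups (SD of log2 CPM from the group mean 0.57 and 0.41, against a median of 0.15 over the table). All 36 reprogramming libraries had the mean of their own group as the nearest, as had 18 of the 24 inhibitor libraries, the other 6 being those of Repsox and Vactosertib.

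Promoters of 4 transcription factors among the members are shown first, since Snail, Zeb and Twist proteins bind E-boxes, and the factors both act on such promoters and are read out from their own. RefSeq promoters (GRCm38.p6, 250 bases before to 50 after the start) were used for 5 of the 9 genes, Snai1, Twist1, Twist2, Zeb2 and Prrx1. Each was found once, letter for letter, in GRCm39, the build of the count tables, and the coordinates below are those of GRCm39. The E-box CACCTG and its complement CAGGTG, the SMAD palindrome GTCTAGAC, the AP-1 site TGANTCA, the wider E-box CANNTG, which overlaps CACCTG, and the TCF/LEF site CTTTGAT with its complement ATCAAAG were searched on both strands. Matches other than those of CANNTG are in capitals, and all other bases are in lower case.
Snai1, chr2:167379865-167380164 (+ strand): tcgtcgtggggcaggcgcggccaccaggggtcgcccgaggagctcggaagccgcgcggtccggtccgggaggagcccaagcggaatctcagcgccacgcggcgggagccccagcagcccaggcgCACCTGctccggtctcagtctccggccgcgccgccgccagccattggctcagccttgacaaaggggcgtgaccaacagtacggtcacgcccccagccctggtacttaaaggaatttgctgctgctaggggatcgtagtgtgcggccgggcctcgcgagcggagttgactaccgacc
Twist1, chr12:34007420-34007719 (+ strand): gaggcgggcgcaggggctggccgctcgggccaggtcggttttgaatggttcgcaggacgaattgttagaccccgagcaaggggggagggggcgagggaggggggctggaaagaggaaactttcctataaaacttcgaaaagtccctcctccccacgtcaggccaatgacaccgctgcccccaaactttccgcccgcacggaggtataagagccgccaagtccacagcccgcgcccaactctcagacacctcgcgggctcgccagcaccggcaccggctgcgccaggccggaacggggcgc
Twist2, chr1:91728933-91729232 (+ strand): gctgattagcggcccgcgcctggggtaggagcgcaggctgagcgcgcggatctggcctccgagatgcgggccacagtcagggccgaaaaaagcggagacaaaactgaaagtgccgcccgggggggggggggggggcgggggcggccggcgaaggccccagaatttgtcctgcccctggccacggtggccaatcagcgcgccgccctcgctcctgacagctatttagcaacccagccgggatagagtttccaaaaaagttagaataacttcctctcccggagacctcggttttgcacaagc
Prrx1, chr1:163141170-163141469 (- strand): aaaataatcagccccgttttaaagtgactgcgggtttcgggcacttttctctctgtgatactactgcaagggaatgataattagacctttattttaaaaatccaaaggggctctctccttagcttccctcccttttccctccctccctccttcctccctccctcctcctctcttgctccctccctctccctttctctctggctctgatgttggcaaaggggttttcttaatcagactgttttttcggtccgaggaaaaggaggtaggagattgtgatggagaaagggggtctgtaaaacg
Of these 4 windows, that of Snai1 held 1 match, a CACCTG whose first base lies 126 bases before the start, and the other 3 held none. CANNTG matched once in the Snai1 window, at the same bases, and in none of the other 3. CACCTG was found in 20.2% of all 32851 promoters, CANNTG in 72.3%, TGANTCA in 7.81%, CTTTGAT in 3.73% and GTCTAGAC in 0.213%. Of the 4 annotated starts of Zeb2, 1 held 2 TGANTCA matches and no E-box. The GC content was 70% for Snai1, 66% for Twist1, 64.7% for Twist2 and 47.7% for Prrx1.

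The genes lie on 6 chromosomes in GRCm39: Snai1 (chr2:167380115-167384734) and Zeb2 (chr2:44873644-45007407) on chromosome 2, Twist2 (chr1:91729183-91775750) and Prrx1 (chr1:163072688-163141279) on chromosome 1, Twist1 (chr12:34007670-34009828) on chromosome 12, Snai2 (chr16:14523716-14527249) on chromosome 16, Cdh11 (chr8:103358727-103512274) on chromosome 8, and Zeb1 and Cdh2 on chromosome 18. The deposited exon lengths ran from 1621 bases for Snai1 to 20203 bases for Zeb2. Exons of Snai1, Twist2, Zeb1, Zeb2 and Prrx1 overlap those of an antisense noncoding gene in GENCODE M39 (such as Zeb1os1, Zeb2os and Gm20471), and the strand setting of the counting is not given in the sources used here, so reads of either strand could fall in these 5 genes. Levels are compared between genes only per length, as RPKM, which divides CPM by the gene's length in kilobases. In the 4F WT line at day 0, Twist1 (106 ± 4.08 RPKM, SD, n = 3) and Cdh11 (104 ± 1.90) lay highest and did not differ beyond their spread, followed by Snai1 (74.5 ± 4.30). Snai2 (43.3 ± 2.33) and Prrx1 (24.8 ± 1.35) formed the middle. Zeb1 (13.2 ± 0.79), Cdh2 (9.37 ± 0.84), Twist2 (6.61 ± 0.83) and Zeb2 (6.58 ± 0.68) lay lowest, and the last 2 did not differ beyond their spread. In the 4F D/KO line at day 0 the order began with Cdh11 (122 ± 10.8), Snai1 (107 ± 43.7) and Twist1 (57.7 ± 13.1), with Snai1 overlapping the other 2 in its spread. Over all 20 groups the lowest group mean was 2.54 RPKM (Twist2, 4F D/KO day 4+VC) and the highest 149.6 RPKM (Twist1, 4F WT day 2+VC), so each of the 9 was detected in every group.

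During reprogramming, the 9 genes did not move in 1 direction. Both cadherins, Snai1, Snai2 and Twist2 were lower at day 4 than at day 0 in both lines without VC, Prrx1 was higher, and with all libraries included Zeb1 and Zeb2 passed the test in neither direction. The baseline of every day 2 and day 4 group was day 0 of its own line and VC state. No time on VC is known here for the day 0+VC groups. In the VC arms, time on VC and time on doxycycline therefore cannot be told apart. A gene is called where its p from edgeR's quasi-likelihood test, adjusted by Benjamini-Hochberg over all 15832 genes, is below 0.05. In 4F D/KO cells at day 2, 5 of the 9 were called lower (all genes, 13.2%) and 1 higher (all genes, 14.3%). At day 4 the counts were again 5 lower (18.7%) and 1 higher (18.3%), with a median log2 fold change of -0.61 over the 9 against 7.6e-05 over all genes. With VC, 5 were lower (23.6%) and 1 higher (23.8%) at day 2, and 7 lower (26.2%) and 1 higher (27.9%) at day 4. For 4F WT cells, 3 were lower (4.3%) and 0 higher (6.26%) at day 2, and 6 lower (12.8%) and 1 higher (11.7%) at day 4, with a median of -0.37. With VC, 3 were lower (13.7%) and 2 higher (13.8%) at day 2, and 4 lower (22%) and 2 higher (22.7%) at day 4. The median over the 9 with VC in WT cells was 0.07 at day 4. Scaling by total counts instead of TMM shifted the median of all genes by -0.29 to 0.36 depending on the comparison and moved the higher share of all calls by as much as -34.1 percentage points (VC at day 0 in 4F WT cells), so changes are relative to the TMM scaling, and the calls that this scaling ended are given with the genes.

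**Figure D1:**
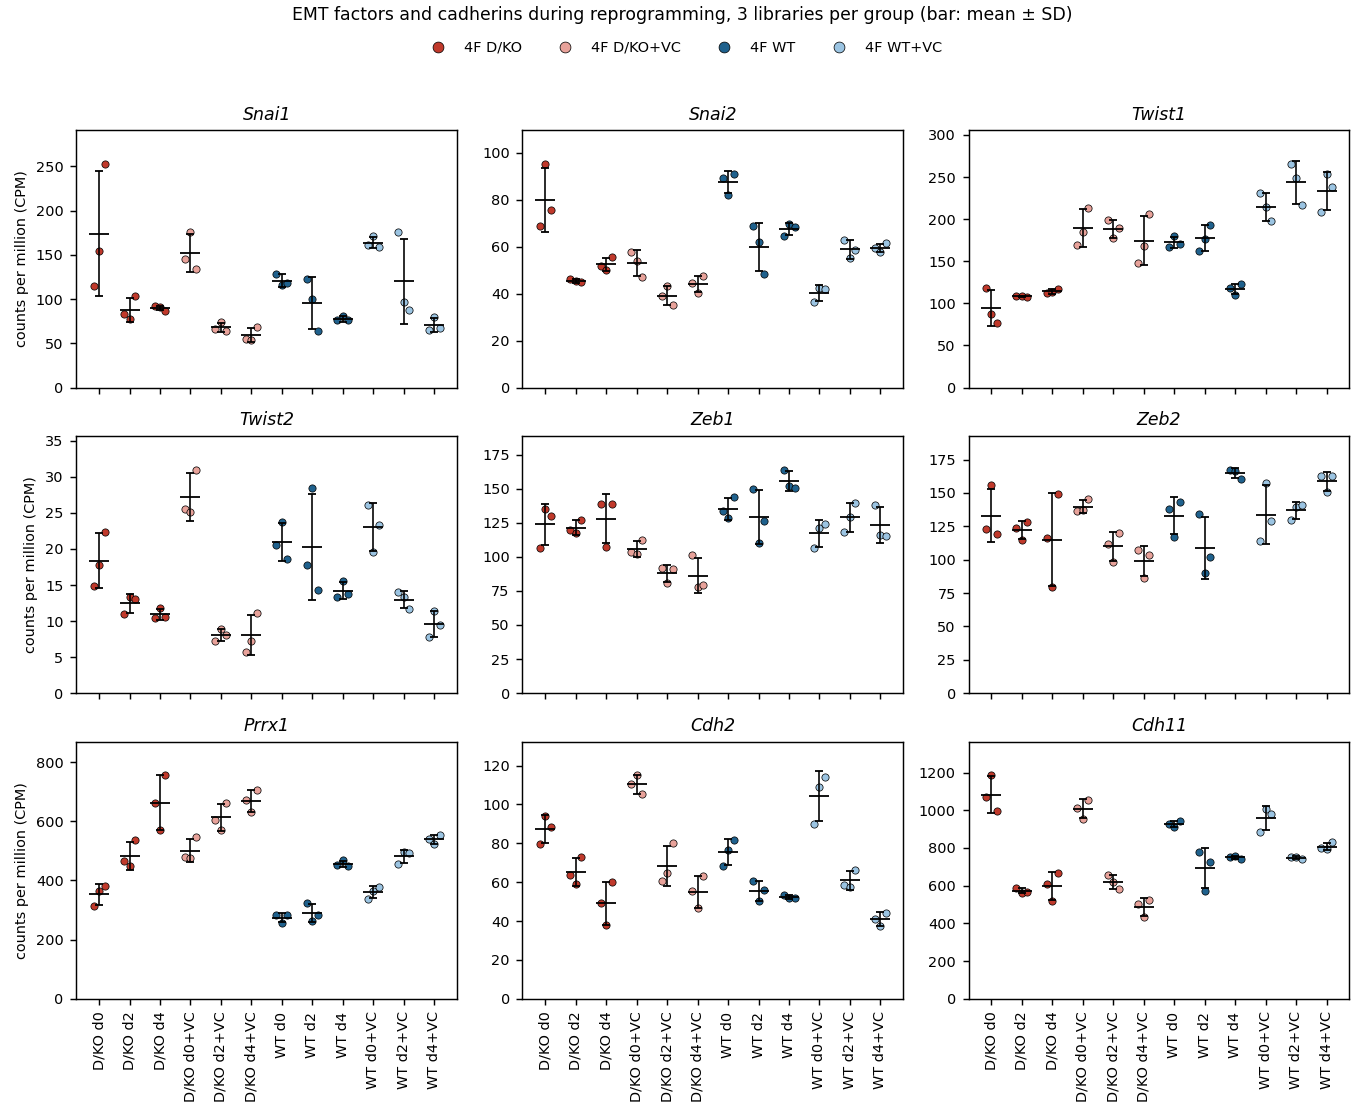
CPM of the 9 genes in the 12 groups of the reprogramming table. Each point is a library, the wide bar is the mean of 3 and the error bar the SD, red marks 4F D/KO and blue 4F WT, with VC in the lighter shade, and each y axis starts at 0. Cdh11 and Cdh2 step down after day 0 in every arm and Prrx1 steps up by day 4, while Zeb1 and Zeb2 overlap their day 0 libraries in 5 of the 8 comparisons.

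Snai1 fell in 4F D/KO cells from the first sampled day. Its level without VC was 115, 154 and 253 at day 0, 83.3, 77.3 and 103 at day 2 and 92.1, 90.5 and 86.9 at day 4 (CPM), and every day 2 and day 4 library lay below every day 0 library although the day 0 libraries were spread. The change was -0.99 ± 0.21 (SE, adjusted p = 0.00038) at day 2 and -0.95 ± 0.21 (SE, adjusted p = 0.00035) at day 4, on the log2 scale. Without 4F D/KO day 0 replicate 3, the highest of its group, it was -0.62 at day 2 and -0.58 at day 4, and both calls held. With VC the level was 146, 176 and 134 at day 0, 65.6, 74.2 and 64.2 at day 2 and 54.98, 54.3 and 68.8 at day 4, and the change was -1.36 ± 0.21 (SE, adjusted p = 1.4e-06) at day 4. In 4F WT cells Snai1 read 129, 116 and 118 at day 0, 122, 100.1 and 63.98 at day 2 and 75.8, 80.9 and 75.8 at day 4, and day 2 overlapped day 0 (-0.34, adjusted p = 0.34) before a called change at day 4 of -0.64 ± 0.21 (SE, adjusted p = 0.023). That call was lost without 4F WT day 0 replicate 1 or 4F WT day 4 replicate 1 or 3 (adjusted p from 0.071 to 0.075) and with the gene-length slope described below as a covariate, -0.51 (adjusted p = 0.091). With VC, Snai1 in 4F WT cells read 161, 171 and 159 at day 0, 175, 96.8 and 88.1 at day 2 and 64.9, 79.6 and 67.8 at day 4, and 1 of the 3 day 2 libraries still lay at the level of day 0. Without that library, replicate 1, the day 2 change was -0.82 (adjusted p = 0.0029), against -0.45 (adjusted p = 0.11) with it, and the day 4 change was -1.21 ± 0.21 (SE, adjusted p = 1.4e-05).

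Snai2, the paralog of Snai1, moved by line and by VC. In the 4F D/KO line without VC it read 68.8, 95.3 and 75.7 at day 0, 46.5, 45.4 and 44.8 at day 2 and 51.9, 50.00 and 55.6 at day 4 (CPM), with day 2 and day 4 wholly below day 0. It changed by -0.81 ± 0.11 (SE, adjusted p = 5.3e-07) at day 2 and by -0.61 ± 0.11 (SE, adjusted p = 3.6e-05) at day 4. In the 4F WT line without VC it read 89.3, 82.1 and 91.01 at day 0, 68.7, 62.1 and 48.5 at day 2 and 64.8, 69.7 and 68.5 at day 4, again wholly below day 0, and changed by -0.37 ± 0.11 (SE, adjusted p = 0.013) at day 4. This WT call was lost without 4F WT day 0 replicate 3 or 4F WT day 4 replicate 1 (adjusted p from 0.0531 to 0.064). With VC, Snai2 in 4F D/KO cells read 57.9, 54.1 and 47.2 at day 0, 39.2, 43.3 and 35.2 at day 2 and 44.8, 40.3 and 47.4 at day 4, lower in every library at day 2 (-0.44, adjusted p = 0.0019), though -0.18 (adjusted p = 0.22) with total counts. For 4F WT cells with VC it read 36.5, 42.5 and 42.2 at day 0, 62.97, 55.2 and 58.5 at day 2 and 59.4, 57.7 and 61.4 at day 4, where every day 2 and day 4 library lay above every day 0+VC library. The WT change was 0.54 ± 0.11 (SE, adjusted p = 0.00032) at day 2 and 0.56 ± 0.11 (SE, adjusted p = 0.00013) at day 4. Against day 0 without VC, where Snai2 was higher, the same WT groups were lower, at -0.57 (adjusted p = 0.00010) and -0.56 (adjusted p = 0.00012). The D/KO change at day 4 with VC (-0.27, adjusted p = 0.048) was lost without 4F D/KO day 0+VC replicate 1 or 2 or 4F D/KO day 4+VC replicate 1 or 2 (adjusted p from 0.085 to 0.21) and turned to 0.10 (adjusted p = 0.49) with total counts, and its 2 groups overlapped.

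Twist1 and Twist2, close relatives that share their DNA-binding domain, did not move together. Twist2 was the less abundant and fell with VC in both lines. In 4F D/KO cells it read 25.6, 25.1 and 31.02 at day 0, 7.24, 8.88 and 8.11 at day 2 and 5.76, 7.24 and 11.2 at day 4 (CPM) with VC, with no overlap between day 0 and later days, a change of -1.75 ± 0.21 (SE, adjusted p = 7.2e-09) at day 2 and -1.75 ± 0.21 (SE, adjusted p = 4.2e-09) at day 4, the largest fall of any member in the 8 comparisons with day 0. In 4F WT cells with VC it read 26.2, 19.5 and 23.4 at day 0, 13.98, 13.3 and 11.7 at day 2 and 7.85, 11.4 and 9.52 at day 4 and changed by -1.26 ± 0.20 (SE, adjusted p = 3.6e-06) at day 4. Without VC the falls were smaller. Twist2 read 14.9, 17.8 and 22.4 at day 0, 10.98, 13.4 and 13.1 at day 2 and 10.4, 11.8 and 10.6 at day 4 in 4F D/KO cells (-0.75 at day 4, adjusted p = 0.0029). In the 4F WT line it read 20.5, 23.8 and 18.6 at day 0, 17.8, 28.5 and 14.4 at day 2 and 13.4, 15.5 and 13.8 at day 4, and changed by -0.56 ± 0.20 (SE, adjusted p = 0.034) at day 4. Without VC, the calls at day 2 in 4F D/KO cells (-0.56, adjusted p = 0.035) and at day 4 in 4F WT cells were each lost without any 1 of 5 libraries. The first was lost without 4F D/KO day 0 replicate 2 or 3 or any 4F D/KO day 2 library (adjusted p from 0.0541 to 0.21) and with total counts, -0.45 (adjusted p = 0.099), and the second without 4F WT day 0 replicate 1 or 2 or any 4F WT day 4 library (adjusted p from 0.0509 to 0.17) or with the gene-length slope as a covariate, -0.24 (adjusted p = 0.35).

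Twist1 was called against day 0 in 1 of the 4 arms. It read 118, 87.1 and 76.97 at day 0, 108, 108 and 108 at day 2 and 112, 113 and 117 at day 4 (CPM) in 4F D/KO cells without VC, where the groups overlapped and the day 4 change was 0.28 ± 0.12 (SE, adjusted p = 0.064). Without 4F D/KO day 0 replicate 1, the highest of its group, that change was 0.48 (adjusted p = 0.0017) and the day 2 change 0.40 (adjusted p = 0.012), against 0.20 (adjusted p = 0.23) at day 2 with it. With total counts the day 4 change was 0.45 (adjusted p = 0.0030). For 4F WT cells without VC it read 167, 179.9 and 170.01 at day 0, 163, 177 and 193 at day 2 and 119, 110.2 and 122 at day 4, overlapping day 0 at day 2 and then lower in every library at day 4, at -0.56 ± 0.12 (SE, adjusted p = 0.00058). With VC no change from day 0 was called in either line, the largest being 0.18 (adjusted p = 0.28). Against day 0 without VC, the groups with VC were higher, by 1.01 (adjusted p = 1.2e-08) at day 2 and 0.89 (adjusted p = 1.0e-07) at day 4 in 4F D/KO cells and by 0.44 (adjusted p = 0.0035) at day 4 in 4F WT cells, day 0 being higher with VC than without it.

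Zeb1 and Zeb2, repressors of E-cadherin that are known to be held in check by microRNAs of the miR-200 family in epithelial cells, were not called in 3 of the 4 arms. Zeb1 read 107, 135 and 130.1 at day 0, 119.7, 117 and 127 at day 2 and 139, 107 and 138 at day 4 (CPM) in 4F D/KO cells without VC, where the groups overlapped. The interval of its day 4 change was -0.19 to 0.28 on the log2 scale. With VC it read 104, 102 and 113 at day 0, 91.6, 80.7 and 91.3 at day 2 and 101, 78.1 and 79.2 at day 4, with day 4 below day 0 in every library (-0.30 ± 0.12 SE, adjusted p = 0.030). Zeb2 in the same arm read 136, 137 and 145 at day 0, 112, 98.3 and 119.8 at day 2 and 107, 86.2 and 104 at day 4 and changed by -0.50 ± 0.15 (SE, adjusted p = 0.0055) at day 4. With total counts these D/KO changes were 0.07 (adjusted p = 0.64) for Zeb1 and -0.13 (adjusted p = 0.51) for Zeb2, so neither call held there. The Zeb1 call was also lost without 4F D/KO day 0+VC replicate 3 or 4F D/KO day 4+VC replicate 2 or 3 (adjusted p from 0.11 to 0.16). Without VC, Zeb2 in 4F D/KO cells read 123, 156 and 119.5 at day 0, 124, 115 and 128 at day 2 and 116, 79.5 and 149 at day 4. Its day 4 change was -0.21 (adjusted p = 0.30), and -0.44 (adjusted p = 0.018) without day 4 replicate 3, the highest of its group. In 4F WT cells no change of either gene from day 0 was called at any time with all libraries included. Without 4F WT day 2 replicate 1, the Zeb2 change at day 2 was -0.47 (adjusted p = 0.043), against -0.29 with it. Zeb2 read 138, 117 and 143 at day 0, 134, 89.9 and 102 at day 2 and 167, 166 and 161 at day 4 without VC, with day 4 above day 0 in every library but a change of 0.31 ± 0.15 (SE, adjusted p = 0.13), and the fit on these 2 groups alone gave 0.32 (adjusted p = 0.00025). The gene-length slope used as a covariate, taken against the mean of all libraries and described below, averaged 0.18 in the 4F WT day 4 group and 0.046 at day 0. With this slope, which differed between the groups compared, as a covariate, the Zeb2 change was 0.02 (adjusted p = 0.94).

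Prrx1, a homeobox factor of limb and dermal mesenchyme, rose in both lines and in no comparison with day 0 fell. In the 4F D/KO line it read 312, 363 and 382 at day 0, 465, 448 and 536 at day 2 and 662, 572 and 756 at day 4 (CPM), with no overlap between any of the days. The rise was 0.45 ± 0.10 (SE, adjusted p = 0.00061) at day 2 and 0.91 ± 0.10 (SE, adjusted p = 2.5e-09) at day 4. In the 4F WT line it read 282, 257 and 285 at day 0, 325, 262 and 284 at day 2 and 452, 468 and 447 at day 4, overlapping day 0 at day 2 (0.08, adjusted p = 0.70) and higher at day 4 in every library, by 0.73 ± 0.10 (SE, adjusted p = 7.2e-07). With VC it read 479, 476 and 546 at day 0, 606, 572 and 662 at day 2 and 670.4, 632 and 705 at day 4 in 4F D/KO cells. For 4F WT cells with VC it read 338, 364 and 378 at day 0, 457, 495 and 493 at day 2 and 541, 523 and 554 at day 4. In both lines every later library lay above every day 0 library. The rise from day 0+VC to day 4+VC was 0.42 ± 0.10 (SE, adjusted p = 0.00060) in 4F D/KO and 0.58 ± 0.10 (SE, adjusted p = 1.2e-05) in 4F WT cells. The smaller D/KO rise at day 2 with VC (0.29, adjusted p = 0.016) was lost without 4F D/KO day 0+VC replicate 1 or 2 or 4F D/KO day 2+VC replicate 3 (adjusted p from 0.060 to 0.092). With the gene-length slope as a covariate, the day 4 rises without VC were 0.92 (adjusted p = 5.0e-12) in 4F D/KO and 0.60 (adjusted p = 1.7e-06) in 4F WT cells.

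Both mesenchymal cadherins fell. Cdh11, the more abundant, read 1069, 1186 and 995 at day 0, 587, 564 and 566 at day 2 and 609, 517 and 666 at day 4 (CPM) in 4F D/KO cells, with every later library below every day 0 library. It changed by -0.92 ± 0.10 (SE, adjusted p = 3.5e-09) at day 2 and -0.86 ± 0.10 (SE, adjusted p = 7.8e-09) at day 4. With VC it read 1013, 956 and 1055 at day 0, 658, 617 and 582 at day 2 and 502, 433 and 524 at day 4 and changed by -1.05 ± 0.10 (SE, adjusted p = 4.2e-11) at day 4. In 4F WT cells Cdh11 read 927, 910.2 and 944 at day 0, 777, 572 and 727 at day 2 and 752, 758 and 742 at day 4 without VC, with a change of -0.30 ± 0.10 (SE, adjusted p = 0.023) at day 4, and the day 4 change with VC was -0.25 ± 0.10 (SE, adjusted p = 0.042). The first WT call was lost without any 1 of its 6 libraries (adjusted p from 0.0518 to 0.072) and was -0.28 (adjusted p = 0.0504) with total counts, and the second without 4F WT day 0+VC replicate 2 or 3 or any 4F WT day 4+VC library (adjusted p from 0.064 to 0.13) and was 0.04 (adjusted p = 0.81) with total counts. The WT call at day 2 (-0.42) was lost without 4F WT day 2 replicate 2 (adjusted p = 0.065). The day 2 call with VC in 4F WT cells (-0.36) was -0.23 (adjusted p = 0.10) with total counts.

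Cdh2 fell in all 4 arms. In 4F D/KO cells without VC it read 79.8, 94.3 and 88.2 at day 0, 63.4, 59.1 and 73.1 at day 2 and 49.5, 37.9 and 60.1 at day 4 (CPM). In the 4F WT line it read 68.3, 76.7 and 81.7 at day 0, 60.4, 50.3 and 56.1 at day 2 and 53.4, 51.9 and 51.6 at day 4. The day 4 change was -0.83 ± 0.13 (SE, adjusted p = 2.6e-06) in 4F D/KO and -0.53 ± 0.13 (SE, adjusted p = 0.0024) in 4F WT cells, with no overlap with day 0 in either. With VC it read 110.4, 115 and 105 at day 0, 60.6, 64.5 and 80.1 at day 2 and 55.2, 46.9 and 63.2 at day 4 in 4F D/KO cells. For 4F WT cells with VC it read 89.7, 109 and 114 at day 0, 58.7, 57.6 and 66.4 at day 2 and 41.2, 37.4 and 44.3 at day 4. The day 4 changes with VC, again with no overlap, were -1.001 ± 0.13 (SE, adjusted p = 4.3e-08) in 4F D/KO and -1.35 ± 0.13 (SE, adjusted p = 1.6e-10) in 4F WT cells. Both day 2 calls without VC were lost without some single libraries, although the values moved little. The D/KO call (-0.42) was lost without 4F D/KO day 0 replicate 2 or 4F D/KO day 2 replicate 2 (adjusted p from 0.064 to 0.081), with values of -0.36 to -0.37, and the WT call (-0.44) without 4F WT day 0 replicate 2 or 3 or 4F WT day 2 replicate 2 or 3 (adjusted p from 0.060 to 0.13), with values of -0.38 to -0.44. With total counts the D/KO change at day 2 was -0.31 (adjusted p = 0.081), and with the gene-length slope as a covariate the WT change was -0.33 (adjusted p = 0.056).

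E-cadherin (Cdh1), the epithelial counterpart of these cadherins and the classical target that Snail and Zeb proteins repress, is named here after its values were seen. It had 0 counts in the 3 4F D/KO libraries at day 0, which allows up to 0.18 to 0.19 CPM per library by counting error alone. In the 4F D/KO line it read 2.30, 2.38 and 1.31 CPM at day 2, 2.82, 4.18 and 3.61 CPM at day 4, 5.33, 6.28 and 6.88 CPM at day 2+VC and 48.4, 41.96 and 42.7 CPM at day 4+VC. No 4F WT group averaged above 0.2 CPM. Summed keratinocyte markers were at 0.71 to 1.58 CPM at day 0, 93.3 to 132 CPM at day 4 and 407 to 548 CPM at day 4+VC in 4F D/KO cells. The sum in 4F WT cells went from 0.95 to 1.39 CPM at day 0+VC to 12.3 to 14.7 CPM at day 4+VC. The part of these markers was not tested. Most of the 4F D/KO sum at day 4+VC was Krt14 (367 CPM) and Perp (130.3 CPM), with the keratinocyte keratin Krt5 at 0.5 CPM. Among 20 epithelial genes, 9 passed the filter, and 3 rose (all genes, 18.3%) and 3 fell (18.7%) in 4F D/KO cells at day 4. Of those called in both lines, the keratin Krt8 rose, from 12, 10 and 29 counts at day 0 to 181, 219 and 101 at day 4 in 4F D/KO cells and from 0, 0 and 0 to 9, 0 and 9 counts in 4F WT cells. The tight junction gene Ocln fell, from 9, 18 and 6 to 1, 3 and 1 counts in 4F D/KO cells and from 3, 16 and 17 to 0, 6 and 2 counts in 4F WT cells, and P-cadherin Cdh3 fell, at -3.96 in 4F D/KO and -3.67 in 4F WT cells on the log2 scale.

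The lists of other genes are read beside the shares over all genes at day 4, of which 18.7% fell and 18.3% rose in 4F D/KO cells and 12.8% fell and 11.7% rose in 4F WT cells. Of 13 mesenchymal genes, 11 fell and 0 rose in 4F D/KO cells at day 4 (median log2 fold change -1.45), and 6 fell and 1 rose in 4F WT cells (median -0.26). Periostin Postn (-2.74 in D/KO and -1.24 in WT), smooth muscle actin Acta2 (-2.61 and -3.06), collagen Col1a1 (-2.11 and -0.76) and Tagln (-1.95 and -1.53), an actin-binding protein of contractile cells, fell in both lines. Of 14 other EMT factors, 12 passed the filter, 7 fell and 2 rose in 4F D/KO cells at day 4, and 1 fell and 1 rose in 4F WT cells. Those called in both were the chromatin factor Hmga2 (-1.11 and -0.79) and the E-protein Tcf4 (0.67 and 0.49), a partner of Twist factors. Of the 10 TGF-β response genes, 7 fell and 0 rose in 4F D/KO cells at day 4 and 3 fell and 2 rose in 4F WT cells. Among them Ltbp2, a binding protein of the extracellular matrix, changed by -2.23 in D/KO and -1.67 in WT. Of the 7 BMP response genes, 6 rose and 0 fell in 4F D/KO and 0 rose and 1 fell in 4F WT cells, with Id2 at 1.57 and -0.52.

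Between days 2 and 4, 2 of the 9 were called in 4F D/KO cells (all genes, 9.57%), Prrx1 at 0.46 ± 0.10 (SE, adjusted p = 0.0019) and Cdh2 at -0.41 ± 0.13 (SE, adjusted p = 0.041). The Cdh2 call was lost without 4F D/KO day 2 replicate 1 or 3 or 4F D/KO day 4 replicate 1 or 2 (adjusted p from 0.072 to 0.29, with the value at -0.25 without 4F D/KO day 4 replicate 2), and was -0.34 (adjusted p = 0.12) with total counts and -0.38 (adjusted p = 0.0535) with DESeq2. With VC, 1 was called (15.6%), Cdh11 at -0.35 ± 0.10 (SE, adjusted p = 0.013), and that was lost without 4F D/KO day 2+VC replicate 1 or 4F D/KO day 4+VC replicate 2 (adjusted p from 0.067 to 0.10) and with total counts, -0.24 (adjusted p = 0.13). In 4F WT cells 3 were called (21.5%), Prrx1 at 0.65 ± 0.10 (SE, adjusted p = 3.4e-05), Zeb2 at 0.60 ± 0.15 (SE, adjusted p = 0.0046) and Twist1 at -0.60 ± 0.12 (SE, adjusted p = 0.00072). The Zeb2 call was lost without 4F WT day 2 replicate 2 (adjusted p = 0.059) and with the gene-length slope as a covariate, 0.11 (adjusted p = 0.70). With VC 2 were called (20.1%), Cdh2 at -0.57 ± 0.13 (SE, adjusted p = 0.0020) and Snai1 at -0.76 ± 0.21 (SE, adjusted p = 0.0090), and the Snai1 call was lost without 4F WT day 2+VC replicate 1 (adjusted p = 0.23, with the value at -0.39). Other values passed the test when 1 library was left out, namely Cdh2 in 4F D/KO cells with VC (-0.43, adjusted p = 0.039, without 4F D/KO day 4+VC replicate 3), Twist2 in 4F WT cells (-0.60, adjusted p = 0.0456, without 4F WT day 2 replicate 1), Twist2 in 4F WT cells (-0.71, adjusted p = 0.015, without 4F WT day 2 replicate 3) and Zeb1 in 4F WT cells (0.39, adjusted p = 0.020, without 4F WT day 2 replicate 1).

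Twist1 was called higher with VC at every sampled day in both lines. At day 0, before any doxycycline, Twist1 read 118, 87.1 and 76.97 CPM without and 169, 185 and 213 CPM with VC in 4F D/KO cells, with no overlap, a difference of 1.01 ± 0.12 (SE, adjusted p = 3.7e-08). In the 4F WT line at day 0 it read 167, 179.9 and 170.01 without and 232, 214 and 198 with VC, a smaller difference of 0.32 ± 0.12 (SE, adjusted p = 0.043), with no overlap either. At day 2 it was 0.80 ± 0.12 (SE, adjusted p = 3.0e-06) in 4F D/KO and 0.46 ± 0.12 (SE, adjusted p = 0.0040) in 4F WT cells. At day 4 the difference was 0.61 ± 0.12 (SE, adjusted p = 0.00012) in 4F D/KO and 0.99 ± 0.12 (SE, adjusted p = 6.3e-08) in 4F WT cells. The WT call at day 0 was lost without any 4F WT day 0 library or 4F WT day 0+VC replicate 1 or 2 (adjusted p from 0.058 to 0.17), and with total counts it was 0.02 (adjusted p = 0.91) and the WT difference at day 2 0.29 (adjusted p = 0.068). The marker lists also differed with VC at day 0. In 4F D/KO cells the summed fibroblast markers were 61194 to 90612 CPM without and 156314 to 223743 CPM with VC, endothelial markers 701 to 752 and 246 to 293 CPM, mural markers 267 to 289 and 66.6 to 89.1 CPM and myogenic markers 21.3 to 34.6 and 4.82 to 9.75 CPM. Fibroblast markers in 4F WT cells were 34604 to 35749 and 132916 to 147226 CPM. Myogenic markers went the other way in 4F WT cells, from 1.82 to 3.22 CPM without to 8.11 to 11.4 CPM with VC. Endothelial (1.10 to 2.09 and 1.00 to 1.90 CPM) and mural markers (45.96 to 51.1 and 43.2 to 53.1 CPM) overlapped there. The part of these markers was not tested. Snai2 moved the other way at day 0. It read 68.8, 95.3 and 75.7 without and 57.9, 54.1 and 47.2 with VC in 4F D/KO cells (-0.59 ± 0.11 SE, adjusted p = 0.00011), and 89.3, 82.1 and 91.01 without and 36.5, 42.5 and 42.2 with VC in 4F WT cells (-1.12 ± 0.11 SE, adjusted p = 1.2e-09), with no overlap in either line.

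In all, VC changed 4 of the 9 at day 0 (26.1% of all genes), 4 at day 2 (25.3%) and 4 at day 4 (34.5%) in 4F D/KO cells. For 4F WT cells it changed 4 at day 0 (29.4%), 3 at day 2 (26.6%) and 3 at day 4 (22.4%). Prrx1 was higher with VC at day 0 (0.51 in D/KO and 0.39 in WT) and at day 2 (0.34 and 0.73), while at day 4 the difference was 0.01 (adjusted p = 0.94) in D/KO and 0.24 (adjusted p = 0.081) in WT. The WT difference at day 0 was 0.09 (adjusted p = 0.51) with total counts, and the D/KO call at day 2 was lost without 4F D/KO day 2 replicate 2 or 4F D/KO day 2+VC replicate 3 (adjusted p = 0.069 each). Zeb1 was lower with VC in 4F D/KO cells at day 2 (-0.47 ± 0.12 SE, adjusted p = 0.0026) and day 4 (-0.57 ± 0.12 SE, adjusted p = 0.00019), where the libraries did not overlap. In 4F WT cells Zeb1 was lower at day 4 (-0.34, adjusted p = 0.032), a call lost without 4F WT day 4 replicate 1 or 2 or 4F WT day 4+VC replicate 2 or 3 (adjusted p from 0.0543 to 0.13). Cdh2 was higher with VC at day 0 in 4F WT cells (0.47 ± 0.13 SE, adjusted p = 0.0056), though 0.17 (adjusted p = 0.33) with total counts, and in 4F D/KO cells the difference was 0.33 (adjusted p = 0.0522).

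Twist2 had no fixed sign under VC. With VC it was higher at day 0 in 4F D/KO cells (0.57 ± 0.20 SE, adjusted p = 0.029), lower there at day 2 (-0.63 ± 0.21 SE, adjusted p = 0.023), and lower in 4F WT cells at day 2 (-0.64 ± 0.20 SE, adjusted p = 0.015) and day 4 (-0.57 ± 0.20 SE, adjusted p = 0.040). Each of these 4 calls was lost without some single libraries. The day 0 call was lost without 4F D/KO day 0 replicate 1 or 2 or 4F D/KO day 0+VC replicate 3 (adjusted p from 0.081 to 0.15) and was 0.39 (adjusted p = 0.13) with total counts, and the D/KO day 2 call was lost without 4F D/KO day 2 replicate 2 or 3 or 4F D/KO day 2+VC replicate 1 or 3 (adjusted p from 0.059 to 0.10). The WT day 2 call was lost without 4F WT day 2 replicate 2 or 4F WT day 2+VC replicate 3 (adjusted p from 0.075 to 0.29, with the value at -0.31 without 4F WT day 2 replicate 2), and the WT day 4 call without any 4F WT day 4 library or 4F WT day 4+VC replicate 1 or 3 (adjusted p from 0.060 to 0.18). Snai1 and Cdh11 were called lower with VC in 4F D/KO cells at day 4, at -0.60 ± 0.21 (SE, adjusted p = 0.026) and -0.30 ± 0.10 (SE, adjusted p = 0.019). The Snai1 call was lost without 4F D/KO day 4 replicate 1 or 2 or 4F D/KO day 4+VC replicate 1 or 2 (adjusted p from 0.0536 to 0.089), and the Cdh11 call without 4F D/KO day 4 replicate 1 or 3 or 4F D/KO day 4+VC replicate 2 (adjusted p from 0.056 to 0.13). With 1 library left out, further VC effects passed the test, which were those on Twist2 in 4F D/KO cells at day 4 (-0.75, adjusted p = 0.0094, without 4F D/KO day 4+VC replicate 3), Zeb2 in 4F D/KO cells at day 4 (-0.42, adjusted p = 0.020, without 4F D/KO day 4 replicate 2), Zeb2 in 4F WT cells at day 2 (0.51, adjusted p = 0.015, without 4F WT day 2 replicate 1) and Cdh2 in 4F WT cells at day 4 (-0.41, adjusted p = 0.0495, without 4F WT day 4+VC replicate 3).

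The change from day 0 was compared between the 2 lines by an interaction term. Without VC, 1 of the 9 differed at day 2 (6.54% of all genes) and 2 at day 4 (14.3%). With VC, 2 differed at day 2 (13.9%) and 3 at day 4 (29.4%). Cdh11 fell further in 4F D/KO than in 4F WT cells, with differences of -0.50 ± 0.14 (SE, adjusted p = 0.026) at day 2, -0.56 ± 0.14 (SE, adjusted p = 0.0057) at day 4 and -0.80 ± 0.14 (SE, adjusted p = 3.9e-05) at day 4+VC. The day 2 call was lost without 4F D/KO day 0 replicate 2 or 4F D/KO day 2 replicate 2 or 4F WT day 0 replicate 2 or 4F WT day 2 replicate 1 or 3 (adjusted p from 0.0506 to 0.076), and with total counts the differences without VC were -0.39 (adjusted p = 0.12) at day 2 and -0.41 (adjusted p = 0.061) at day 4. Snai2 differed with VC, by -0.98 ± 0.16 (SE, adjusted p = 4.0e-05) at day 2 and -0.82 ± 0.16 (SE, adjusted p = 0.00016) at day 4. Twist1 differed at day 4 without VC, by 0.84 ± 0.17 (SE, adjusted p = 0.00053), where the WT fall was called and the D/KO change was not. Twist2 differed at day 2+VC, by -0.93 ± 0.29 (SE, adjusted p = 0.024), a call lost without 4F D/KO day 0+VC replicate 3 or 4F D/KO day 2+VC replicate 1 or 4F WT day 0+VC replicate 2 or 4F WT day 2+VC replicate 1 or 2 (adjusted p from 0.0503 to 0.069) and with total counts, -0.80 (adjusted p = 0.057). Zeb2 differed at day 4+VC, by -0.74 ± 0.21 (SE, adjusted p = 0.0072), where the D/KO fall was called and the WT change was not. Before doxycycline the lines already differed in 3 of the 9 (43.2% of all genes): Twist1 was lower in 4F D/KO cells by 0.88 (adjusted p = 3.1e-07), Prrx1 higher by 0.36 (adjusted p = 0.0040) and Snai1 higher by 0.53 (adjusted p = 0.039). The Snai1 call was lost without 4F D/KO day 0 replicate 3 or any 4F WT day 0 library (adjusted p from 0.0536 to 0.58, with the value at 0.16 without 4F D/KO day 0 replicate 3), and with total counts the differences were 0.16 (adjusted p = 0.21) for Prrx1 and 0.33 (adjusted p = 0.20) for Snai1. Differences that passed the test when 1 library was left out were Zeb2 at day 4 (-0.75, adjusted p = 0.0064, without 4F D/KO day 4 replicate 3), Snai1 at day 2+VC (-0.89, adjusted p = 0.045, without 4F WT day 2+VC replicate 3), Twist2 at day 4+VC (-0.80, adjusted p = 0.036, without 4F D/KO day 4+VC replicate 3), Zeb1 at day 4+VC (-0.50, adjusted p = 0.020, without 4F D/KO day 4+VC replicate 1) and Cdh11 between the lines at day 0 (0.28, adjusted p = 0.043, without 4F D/KO day 0 replicate 3).

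**Figure D2:**
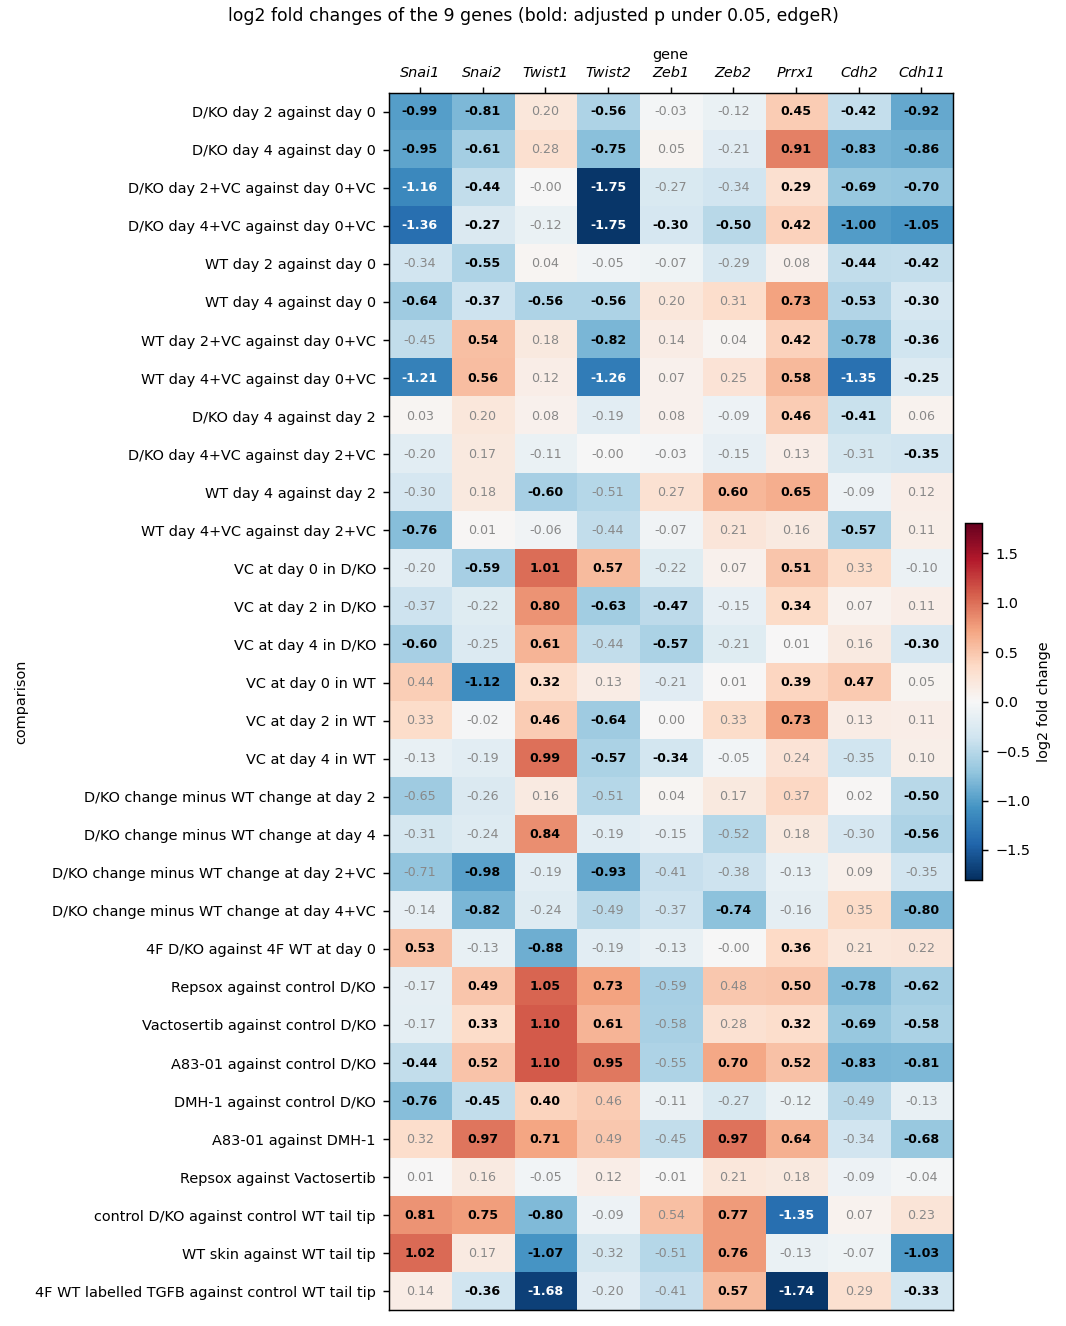
Log2 fold change of each gene (columns) in each of the 32 comparisons (rows) by edgeR, blue for lower and red for higher, with values called at an adjusted p below 0.05 in bold. The Cdh2 and Cdh11 columns are blue in the 8 comparisons with day 0 and with the 3 TGF-β receptor inhibitors against control, whereas Twist2 is mostly blue in the comparisons with day 0 and red under the TGF-β receptor inhibitors.

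The inhibitors were applied to D/KO cells without reprogramming factors, to see which changes accompany inhibition of receptors of the TGF-β superfamily. TGF-β is a classical inducer of Snai1, Snai2, Twist and Zeb genes in epithelial cells. In these fibroblasts, the 3 TGF-β type I receptor inhibitors lowered both cadherins and raised Twist1, Twist2, Snai2 and Prrx1. Each compound was compared with the same 3 control libraries, so the 4 sets of values are not independent. With Repsox, 4 of the 9 were called higher (all genes, 11%) and 2 lower (9.73%). With Vactosertib, 4 were higher (9.37%) and 2 lower (8.7%), and with A83-01, 5 were higher (13.6%) and 3 lower (13.9%). With DMH-1, 1 was higher (4.35%) and 2 lower (2.9%). The median log2 fold change over the 9 was 0.48 with Repsox, 0.28 with Vactosertib, 0.52 with A83-01 and -0.13 with DMH-1, where the medians over all genes were 0.02, 0.0017, 0.00033 and -0.0017. Summed fibroblast markers were 56695 to 61286 CPM in the controls, 24961 to 32001 CPM with Repsox, 32875 to 35273 CPM with Vactosertib, 28384 to 30228 CPM with A83-01 and 43311 to 58362 CPM with DMH-1. Summed glial or melanocyte markers were 8.09 to 10.8 CPM in the controls and 33.2 to 40.8 CPM with A83-01, and lay between these with the other compounds. The part of either marker list was not tested.

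**Figure D3:**
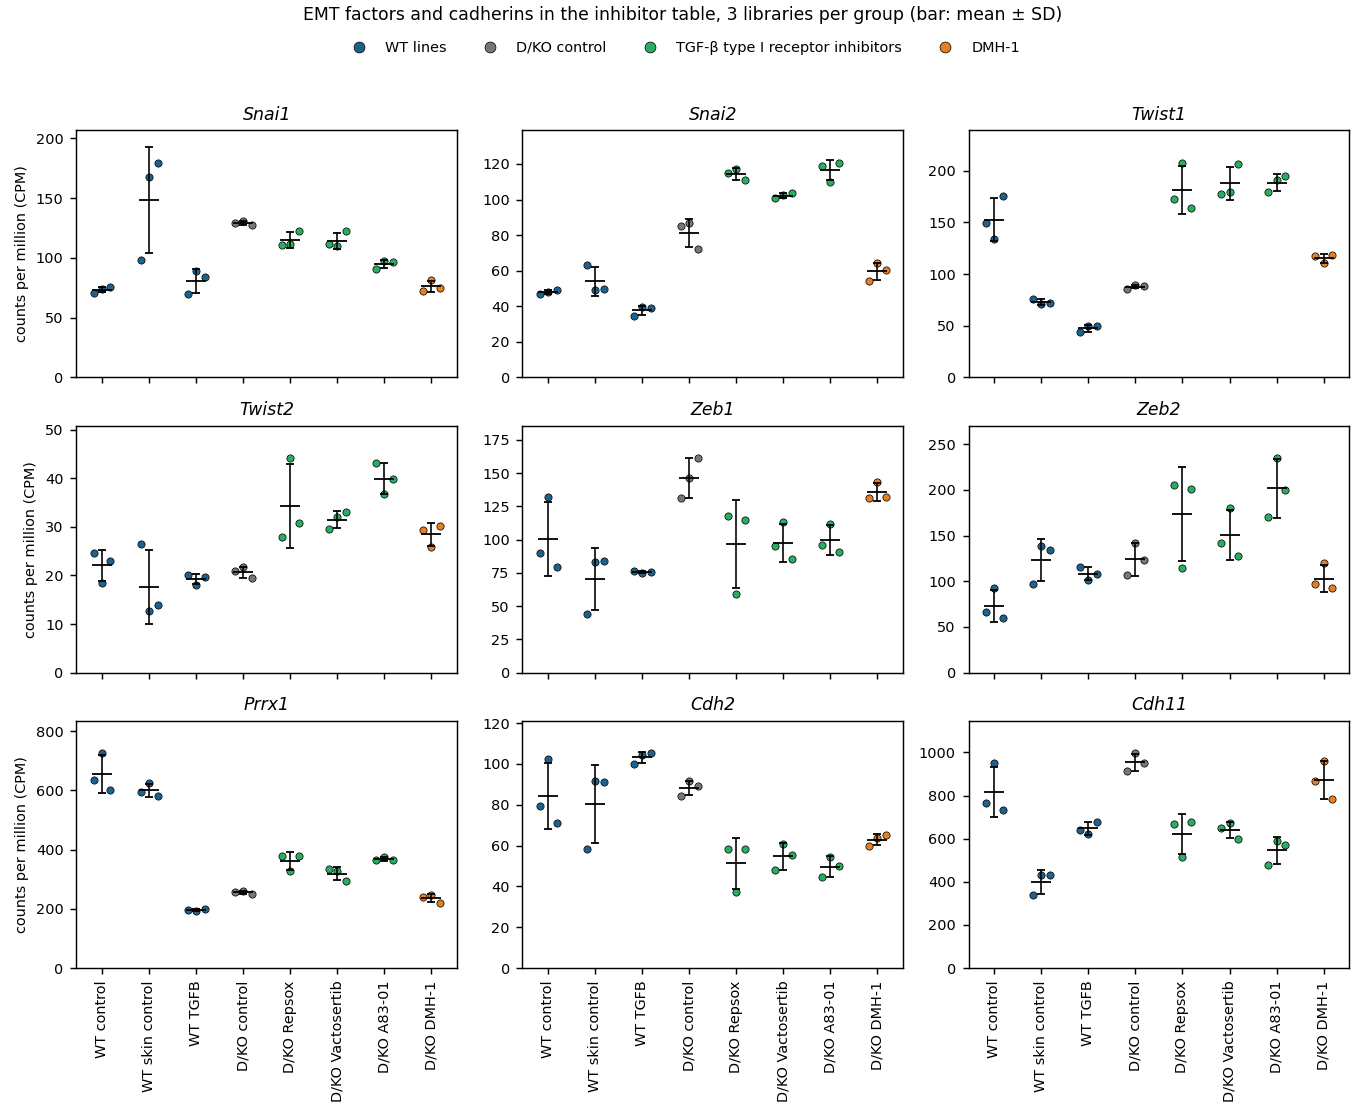
CPM of the 9 genes in the 8 groups of the inhibitor table, with each library as a point, the mean as a wide bar and the SD as the error bar. Twist1 and Snai2 with the 3 TGF-β receptor inhibitors (green) lie above and Cdh11 and Cdh2 below the D/KO control libraries (grey), while DMH-1 (orange) lowers Snai1 and Snai2.

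Twist1 had the highest estimate of the 9 with each of the 3 TGF-β receptor inhibitors. It read 85.8, 88.98 and 87.9 in control, 172, 208 and 164 with Repsox, 177, 179.7 and 206 with Vactosertib, 179, 191 and 195 with A83-01 and 118, 110.2 and 118 with DMH-1 (CPM), so every library of the 3 TGF-β receptor inhibitors lay above every control and every DMH-1 library. The rise was 1.05 ± 0.11 (SE, adjusted p = 2.7e-07) with Repsox, 1.10 ± 0.11 (SE, adjusted p = 2.1e-07) with Vactosertib and 1.10 ± 0.11 (SE, adjusted p = 7.7e-08) with A83-01, and 0.40 ± 0.11 (SE, adjusted p = 0.024) with DMH-1. The DMH-1 call was lost without any 1 of its 6 libraries (adjusted p from 0.0503 to 0.090). Twist2 read 20.8, 21.8 and 19.5 in control, 27.9, 44.2 and 30.8 with Repsox, 29.5, 32.03 and 33.01 with Vactosertib, 43.1, 36.7 and 39.9 with A83-01 and 29.4, 25.8 and 30.1 with DMH-1, with all treated libraries above all controls, and was called with Repsox (0.73 ± 0.21 SE, adjusted p = 0.015), Vactosertib (0.61 ± 0.21 SE, adjusted p = 0.0468) and A83-01 (0.95 ± 0.21 SE, adjusted p = 0.0014). The Repsox call was lost without D/KO control replicate 3 or D/KO Repsox replicate 2 (adjusted p from 0.059 to 0.10), and the Vactosertib call without any 1 of its 6 libraries (adjusted p from 0.071 to 0.14). With DMH-1, Twist2 was 0.46 (adjusted p = 0.22), and 0.46 (adjusted p = 0.0046) when both libraries that stood apart, WT skin replicate 1 and Repsox replicate 2, were left out of the fit.

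Snai2 moved one way with the TGF-β receptor inhibitors and the other way with DMH-1. It read 85.04, 86.6 and 72.01 in control, 115, 117 and 111 with Repsox, 101, 102 and 104 with Vactosertib, 119, 109.98 and 121 with A83-01 and 54.3, 64.3 and 60.1 with DMH-1 (CPM), above the controls in every library of the 3 TGF-β receptor inhibitors and below them in every DMH-1 library. The changes were 0.49 ± 0.10 (SE, adjusted p = 0.0013), 0.33 ± 0.10 (SE, adjusted p = 0.027) and 0.52 ± 0.10 (SE, adjusted p = 0.00053) with Repsox, Vactosertib and A83-01, and -0.45 ± 0.10 (SE, adjusted p = 0.0087) with DMH-1. Snai1 read 129, 131 and 127 in control, 111, 111 and 122 with Repsox, 111, 109 and 122 with Vactosertib, 90.8, 97.5 and 96.1 with A83-01 and 72.1, 81.2 and 75.1 with DMH-1 and was lowest with DMH-1 (-0.76 ± 0.15 SE, adjusted p = 0.0024), lower with A83-01 (-0.44 ± 0.15 SE, adjusted p = 0.030), and -0.17 (adjusted p = 0.50) with Repsox and -0.17 (adjusted p = 0.50) with Vactosertib. The Snai1 call with A83-01 was lost without any 1 of its 6 libraries (adjusted p from 0.063 to 0.10) and with total counts, -0.29 (adjusted p = 0.14), and the Snai2 call with Vactosertib without D/KO control replicate 3 or any D/KO Vactosertib library (adjusted p from 0.056 to 0.16). The Snai2 call with DMH-1 was lost without D/KO control replicate 1 or 2 or D/KO DMH-1 replicate 1 (adjusted p from 0.0501 to 0.057).

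Prrx1 read 257, 261 and 251 in control, 379.8, 328 and 379 with Repsox, 336, 328 and 294 with Vactosertib, 365, 376 and 365 with A83-01 and 241, 248 and 221 with DMH-1 (CPM) and rose with the 3 TGF-β receptor inhibitors, by 0.50 ± 0.09 (SE, adjusted p = 0.00032), 0.32 ± 0.09 (SE, adjusted p = 0.016) and 0.52 ± 0.09 (SE, adjusted p = 0.00012), each with no overlap with the controls. The Vactosertib call was lost without D/KO control replicate 1 or 3 or D/KO Vactosertib replicate 1 or 2 (adjusted p from 0.0507 to 0.078). With these inhibitors, though not with DMH-1, the 2 Zeb genes had opposite signs. Zeb2 read 107, 142 and 123 in control, 205, 115 and 201 with Repsox, 142, 181 and 128 with Vactosertib, 170.3, 235 and 200.3 with A83-01 and 96.8, 119.8 and 92.3 with DMH-1 and was called higher with A83-01 (0.70 ± 0.21 SE, adjusted p = 0.016), though not without D/KO control replicate 1 or D/KO A83-01 replicate 2 (adjusted p = 0.080 each), and with Repsox it was 0.48 (adjusted p = 0.12), or 0.71 (adjusted p = 0.014) without Repsox replicate 2. Zeb1 read 131, 146 and 161 in control, 118, 58.9 and 115 with Repsox, 95.1, 113 and 85.1 with Vactosertib, 96.1, 112 and 90.9 with A83-01 and 132, 144 and 132 with DMH-1, below every control library with each TGF-β receptor inhibitor, yet at -0.59 ± 0.24 (SE, adjusted p = 0.090), -0.58 ± 0.24 (SE, adjusted p = 0.11) and -0.55 ± 0.24 (SE, adjusted p = 0.095) it was not called. Without both libraries that stood apart, Zeb1 was called with Vactosertib (-0.58, adjusted p = 0.0029) and A83-01 (-0.55, adjusted p = 0.0028). With Repsox it was -0.33 (adjusted p = 0.12) in that fit.

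Both cadherins fell with the TGF-β receptor inhibitors. Cdh11 read 915, 996 and 953 in control, 669.8, 517 and 679 with Repsox, 648, 674 and 599 with Vactosertib, 476, 591 and 571 with A83-01 and 868, 962 and 785 with DMH-1 (CPM) and changed by -0.62 ± 0.13 (SE, adjusted p = 0.0017), -0.58 ± 0.13 (SE, adjusted p = 0.0036) and -0.81 ± 0.13 (SE, adjusted p = 7.7e-05) with the 3, with no overlap with the controls, and by -0.13 ± 0.13 (SE, adjusted p = 0.69) with DMH-1, where libraries overlapped. Cdh2 read 84.4, 91.5 and 88.9 in control, 58.4, 37.03 and 58.5 with Repsox, 47.99, 60.9 and 55.4 with Vactosertib, 44.7, 54.6 and 49.9 with A83-01 and 59.8, 63.7 and 65.1 with DMH-1 and changed by -0.78 ± 0.18 (SE, adjusted p = 0.0026), -0.69 ± 0.18 (SE, adjusted p = 0.0083) and -0.83 ± 0.18 (SE, adjusted p = 0.0011). With DMH-1, Cdh2 was below control in every library, at -0.49 ± 0.17 (SE, adjusted p = 0.10), which was not called over all 24 libraries and was -0.49 (adjusted p = 0.0033) without both libraries that stood apart. The Cdh2 call with Vactosertib was lost without D/KO Vactosertib replicate 1 (adjusted p = 0.056).

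Of 10 TGF-β response genes, 7, 7 and 8 fell with Repsox, Vactosertib and A83-01 and 6 with DMH-1, and 1 rose with each. Over all genes the shares that fell were 9.73%, 8.7%, 13.9% and 2.9%, and those that rose 11%, 9.37%, 13.6% and 4.35%. Among the response genes Tgfbi changed by -2.92 with A83-01 and -0.62 with DMH-1, the SMAD co-repressor Skil by -2.67 and -0.73, and Ccn2 by -2.48 and -0.79. All 7 BMP response genes rose with each of the 3 TGF-β receptor inhibitors, among them Id4 (2.97 with A83-01), the basic helix-loop-helix factor Atoh8 (2.77), Smad9 (2.17) and Id2 (2.16), and with DMH-1 1 of the 7 fell and 0 rose. Id proteins are known to bind the E-protein partners of Twist factors. Of 12 other EMT factors that passed the filter, Sox9 fell with all 4 compounds (-2.03, -1.75, -2.17 and -1.01), and Prrx2, the paralog of Prrx1, rose with the 3 TGF-β receptor inhibitors (0.78, 0.83 and 0.85) and was -0.08 (adjusted p = 0.89) with DMH-1.

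A83-01 and DMH-1 were used at a shared concentration, and Repsox and Vactosertib at another, so these 2 pairs were compared directly, with p-values adjusted over all 15652 genes of a pair. Between A83-01 and DMH-1, 5 of the 9 differed (20.5% of all genes). Snai2 was higher with A83-01 by 0.97 ± 0.10 (SE, adjusted p = 5.2e-07), Zeb2 by 0.97 ± 0.21 (SE, adjusted p = 0.0020), Twist1 by 0.71 ± 0.11 (SE, adjusted p = 3.6e-05) and Prrx1 by 0.64 ± 0.09 (SE, adjusted p = 1.8e-05). Cdh11 was lower with A83-01, at -0.68 ± 0.13 (SE, adjusted p = 0.00073). For the other 4 the intervals of the difference were 0.06 to 0.91 (Twist2), 0.01 to 0.63 (Snai1), -0.94 to 0.05 (Zeb1) and -0.70 to 0.03 (Cdh2), and all 4 were called without both libraries that stood apart (adjusted p 0.00090, 0.0052, 0.016 and 0.020). Neither of those libraries belongs to this comparison, and the share of all genes called in that fit is not given here. Between Repsox and Vactosertib none of the 9 was called, nor any of the 15652 genes (0%), with 347 genes at an unadjusted p below 0.05 and 6 called by DESeq2. The widest intervals among the 9 were those of Zeb1 (-0.51 to 0.49) and Zeb2 (-0.23 to 0.65) and the narrowest that of Prrx1 (-0.0048 to 0.37), so differences of that size are not shown to be absent.

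Levels also differed between lines. Prrx1 read 636, 725 and 601 CPM in control WT tail tip, 595, 624 and 581 CPM in WT skin, 257, 261 and 251 CPM in D/KO controls and 196, 192 and 198 CPM in 4F WT TGFB libraries. Control D/KO cells had 5 of the 9 called against control WT tail tip (34.6% of all genes), with Prrx1 at -1.35 ± 0.09 (SE, adjusted p = 2.1e-10), Twist1 at -0.80 ± 0.11 (SE, adjusted p = 3.7e-06), Snai1 at 0.81 ± 0.15 (SE, adjusted p = 0.00020), Zeb2 at 0.77 ± 0.21 (SE, adjusted p = 0.0072) and Snai2 at 0.75 ± 0.10 (SE, adjusted p = 5.7e-06). Summed endothelial markers were 305 to 351 CPM in control D/KO and 35.5 to 48.4 CPM in control WT tail tip libraries, mural markers 124 to 151 and 34.4 to 55.8 CPM and keratinocyte markers 0.51 to 1.003 and 13.05 to 14.5 CPM, and their part was not tested. Without WT control replicate 2, Zeb1 was also called, at 0.79 (adjusted p = 0.022). This Prrx1 difference is opposite in sign to that between the 4F lines at day 0 (0.36), which are other lines of other ages. Skin against tail tip WT cells of 1 age had 4 called (34.2%), with Cdh11 at -1.03 ± 0.13 (SE, adjusted p = 3.4e-06), Twist1 at -1.07 ± 0.11 (SE, adjusted p = 9.8e-08), Snai1 at 1.02 ± 0.15 (SE, adjusted p = 1.8e-05) and Zeb2 at 0.76 ± 0.21 (SE, adjusted p = 0.0078). The Zeb2 call was lost in a fit on these 2 groups alone, 0.77 (adjusted p = 0.063). Summed myogenic markers were 58.1 to 84.3 CPM in skin and 2.09 to 3.76 CPM in tail tip libraries, and endothelial markers 167 to 259 and 35.5 to 48.4 CPM, and their part was not tested. Without WT skin replicate 1, Twist2 was also lower in skin, at -0.74 (adjusted p = 0.0012).

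The 4F WT libraries labelled TGFB have no untreated library of their line in their table, so against control WT tail tip cells line, age and treatment cannot be told apart. Here 5 of the 9 were called (62.2% of all genes, with a median of all genes of -0.11). Prrx1 differed by -1.74 ± 0.09 (SE, adjusted p = 8.8e-13) and Twist1 by -1.68 ± 0.11 (SE, adjusted p = 2.2e-11), with Twist1 at 43.6, 49.6 and 49.3 CPM, the lowest of the table, against 149, 134 and 175 CPM in control WT. Snai2 was lower (-0.36 ± 0.10 SE, adjusted p = 0.0051), as was Cdh11 (-0.33 ± 0.13 SE, adjusted p = 0.033), and Zeb2 was higher (0.57 ± 0.21 SE, adjusted p = 0.023). The Cdh11 call was lost without WT control replicate 2 or 4F WT TGFB replicate 1 or 2 (adjusted p from 0.078 to 0.19, with the value at -0.21 without WT control replicate 2) and the Zeb2 call without WT control replicate 1 or 3 or 4F WT TGFB replicate 1 (adjusted p from 0.069 to 0.11) and with total counts, 0.39 (adjusted p = 0.10). Against control WT tail tip cells, these libraries had summed mural cell markers of 458 to 468 against 34.4 to 55.8 CPM, endothelial markers of 2.26 to 3.76 against 35.5 to 48.4 CPM and keratinocyte markers of 0.44 to 1.05 against 13.05 to 14.5 CPM, and their part was not tested. Without WT control replicate 2, Cdh2 was higher, at 0.45 (adjusted p = 0.044). Of the 10 TGF-β response genes 9 were higher in these libraries (all genes, 28.6%) and 1 lower (33.6%).

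Libraries of a group differed from each other in a way that followed gene length, and this touched the members unequally. For each library, the deviation of log2 CPM from the group mean was regressed on log2 gene length over 9268 and 9114 well-counted genes, which gave its within-group slope. Its correlation with length ran from -0.63 to 0.62 across the reprogramming libraries and from -0.68 to 0.67 across the inhibitor libraries. Across the 24 inhibitor libraries, which share their groups and the genes behind the slope, the deviation of Zeb1 followed that slope with r = 0.97, Zeb2 with 0.92, Cdh2 with 0.92, Cdh11 with 0.92 and Twist2 with -0.89. The gene-length slope used as a covariate was another one, that of each library's deviation from the mean over all libraries of its table. It also differed between groups, averaging 0.066 in D/KO controls, -0.028 with Repsox, -0.031 with Vactosertib and 0.022 with A83-01. It can therefore take up part of a difference between groups. With it as a covariate, chosen after seeing the data, the Zeb1 change was -0.46 (adjusted p = 2.9e-06) with Repsox, -0.39 (adjusted p = 4.3e-05) with Vactosertib and -0.46 (adjusted p = 1.5e-06) with A83-01. The Zeb2 change was 0.60 (adjusted p = 1.6e-06), 0.43 (adjusted p = 0.00019) and 0.77 (adjusted p = 1.3e-08). In that fit Zeb1 was lower and Zeb2 higher with each of the 3 compounds, with the same signs as without the covariate. With DMH-1 the covariate fit gave -0.42 (adjusted p = 0.00015) for Cdh2 and 0.38 (adjusted p = 0.0063) for Twist2.

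**Figure D4:**
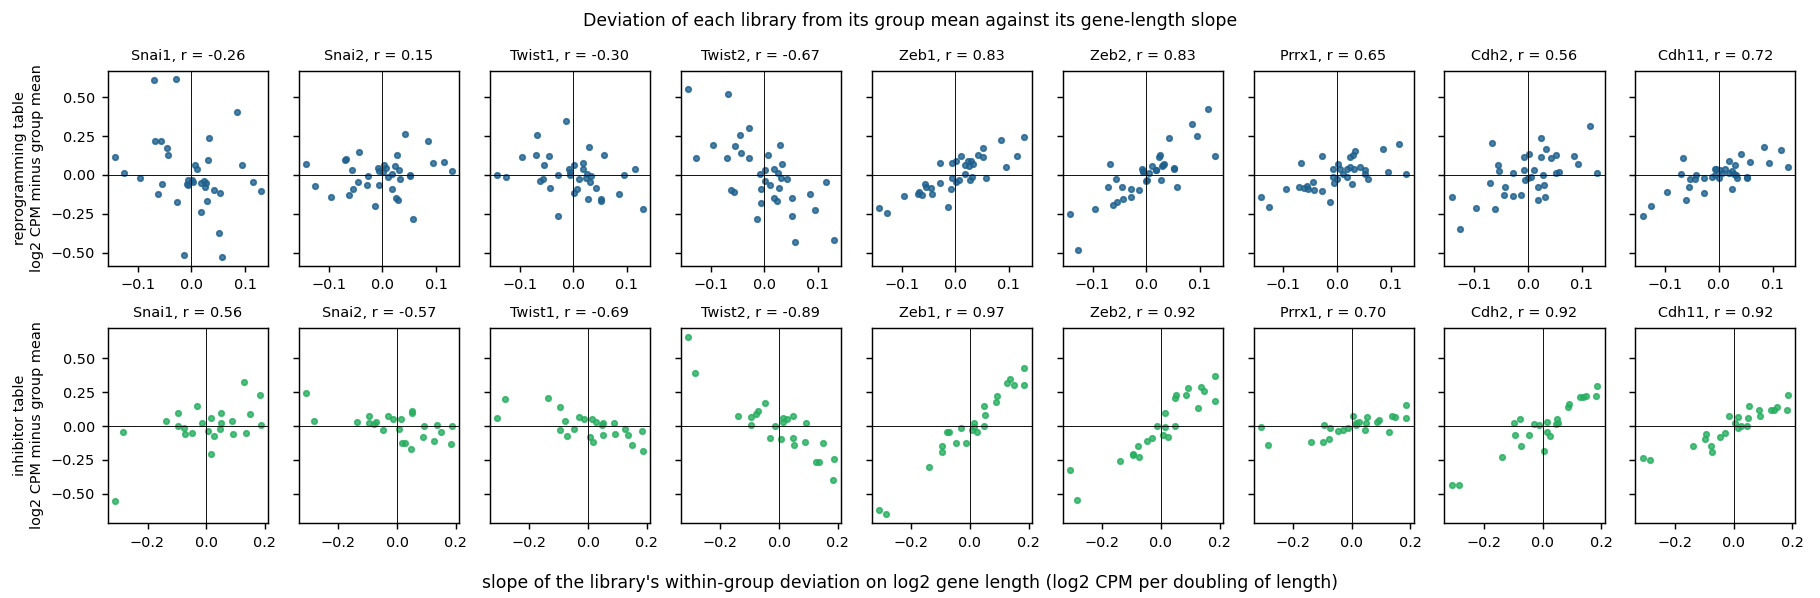
Deviation of each library from its group mean (y axis, log2 CPM) against the slope of that library's deviations on log2 gene length (x axis), for the 36 reprogramming libraries (upper row) and the 24 inhibitor libraries (lower row). Zeb1 and Zeb2, with long transcripts, rise along the slope (r = 0.83 and 0.83 above, 0.97 and 0.92 below) and Twist2 falls (-0.67 and -0.89).

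Across the 12 group means of the reprogramming table, which share lines and days, Snai1 and Twist2 had alike patterns (Pearson r = 0.86), as had Snai1 and Cdh11 (0.83) and Snai1 and Cdh2 (0.81), and Prrx1 ran against Twist2 (-0.75). Over the 8 groups of the inhibitor table the same pairs gave -0.15, -0.45, -0.14 and -0.13. There Twist1 and Twist2 were alike (0.83, against -0.01 in the reprogramming table) and Cdh2 ran against Twist2 (-0.91) and Snai2 (-0.85). The genes of the whole table whose 12 group means were most like those of each member included, by r, Tax1bp3 (0.97) and Fzd8 (0.96) for Snai1, Hsd17b1 (0.92), Pisd-ps2 (0.90) and Rb1cc1 (0.90) for Snai2, Dapp1 (0.94), Osgin1 (0.93) and Akr1b10 (0.93) for Twist1, Cant1 (0.97), Erlec1 (0.97) and Pofut2 (0.97) for Twist2 and Zer1 (0.96), Arsg (0.96) and Thra (0.96) for Zeb1. For the remaining 4 these were Map4k5 (0.91), Zswim8 (0.91) and Pcnx3 (0.91) for Zeb2, Ptprv (0.95), Kics2 (0.94) and Gm28438 (0.94) for Prrx1, Dcbld1 (0.97), Slc35f6 (0.96) and P4hb (0.96) for Cdh2 and Atf6b (0.95), Nipa1 (0.94) and Rhobtb3 (0.94) for Cdh11. Over the 8 inhibitor groups the 27 pairs, 3 for each member, ranged from r = -0.78 to 0.84.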

How the data were processed

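RNA was sequenced as 150 bp paired-end reads. The authors checked and trimmed reads with FastQC and Trim Galore, aligned them to GRCm39 with HISAT2 and counted them per gene with featureCounts (Subread), and what they deposited are 2 tables of unnormalized counts. Versions, the annotation and the strand setting are not given in the sources used here. Gene identifiers were paired with symbols from GENCODE M39 for 56236 of 56980 rows (98.7%). Counts were fitted per table with edgeR 4.0.16 (R 4.3.3, limma 3.58.1): TMM scaling, filterByExpr (minimum count 10, total 15), 1 coefficient per group over all libraries of the table, the quasi-likelihood F-test and Benjamini-Hochberg adjustment over all genes tested (15832 and 15652). This unpaired fit took the place of the DESeq2 test of the study, which was run as an alternative (DESeq2 1.42.0). CPM used TMM-scaled totals, and RPKM the deposited gene lengths. Intervals are 95% and cover counting and replicate error of these libraries only. TMM factors were 0.77 to 1.10 and 0.85 to 1.12.

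Groups came from the labels. The members and the lists of other genes were chosen with earlier results of these data known. The 9 members were all named. Other genes were named where they were called in both lines at day 4 against day 0, or with at least 3 of the 4 inhibitors, up to the 4 largest changes per list, and the 3 genes most like each member by Pearson r over 12 group means, and some of the genes so named are not reported here. The tests were run on simulated counts first. Alternatives were another scaling, no or a stricter filter, DESeq2, a fit on the compared groups alone or on 18 libraries, day 0 without VC as the baseline, a fold change minimum, each library left out, the gene-length slope as a covariate and 2 libraries left out.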

Additional observations from a re-analysis of the deposited data

Results flagged for a closer look

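The change of some members from day 0 differed between the 4F D/KO and 4F WT lines by a test of the difference itself, and these are the results that met the rule for a closer look. Cdh11 was lower in D/KO relative to its own day 0 than in WT, with a difference of -0.50 on the log2 scale at day 2, -0.56 at day 4 and -0.80 at day 4+VC. The Snai2 difference was -0.98 at day 2+VC and -0.82 at day 4+VC, with a called rise in WT in both. The Twist2 difference was -0.93 at day 2+VC, with a called fall in each line. The Twist1 difference was 0.84 at day 4, with a called fall in WT. The Zeb2 difference was -0.74 at day 4+VC, with a called fall in D/KO. The marker lists moved in the same comparisons. Fibroblast markers summed to 61194 to 90612, 32809 to 33862 and 22018 to 23015 CPM at days 0, 2 and 4 in 4F D/KO cells and to 34604 to 35749, 26143 to 38405 and 24702 to 26286 CPM in 4F WT cells. Fibroblast markers summed to 156314 to 223743, 45939 to 46792 and 19116 to 20176 CPM at days 0, 2 and 4 with VC in 4F D/KO cells and to 132916 to 147226, 51612 to 61015 and 35569.5 to 42907 CPM in 4F WT cells. Summed endothelial markers in 4F D/KO cells were 701 to 752, 455 to 529.7 and 256 to 306 CPM without VC and 246 to 293, 142 to 177 and 474 to 670.2 CPM with it. The endothelial sums in 4F WT cells were 1.10 to 2.09, 0.99 to 2.06 and 0.28 to 1.70 CPM without VC and 1 to 1.90, 0.16 to 0.73 and 0.44 to 0.81 CPM with it. Summed mural markers in 4F D/KO cells were 267 to 289, 326 to 419 and 365 to 432 CPM without VC and 66.6 to 89.1, 247 to 295 and 214 to 259 CPM with it. The mural sums in 4F WT cells were 45.96 to 51.1, 57.8 to 68.2 and 128 to 148 CPM without VC and 43.2 to 53.1, 83.7 to 96.1 and 106 to 126 CPM with it. Summed keratinocyte markers in 4F D/KO cells were 0.71 to 1.58, 26.8 to 36.6 and 93.3 to 132 CPM without VC and 1.05 to 2.20, 126 to 154 and 407 to 548 CPM with it. The keratinocyte sums in 4F WT cells were 0.72 to 1.18, 1.78 to 3.39 and 2.65 to 4.04 CPM without VC and 0.95 to 1.39, 12.6 to 14.7 and 12.3 to 14.7 CPM with it. The part of these markers was not tested. No group had more than 3 libraries, so single libraries were not tested as outliers.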

How the results depend on the processing

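Of 130 calls among 288 tests of the 9 genes, 95 passed the threshold with the same sign under every alternative of processing other than a fold change minimum and day 0 without VC as the baseline, 91 with each library left out in turn, and 82 under both. No paired analysis was possible because the labels number the samples of each table in 1 run across its groups and give no replicate numbers that the groups share. With total counts in place of TMM, the sign of 3 calls turned, Snai2 at 0.10 for D/KO day 4+VC, Zeb1 at 0.070 for D/KO day 4+VC and Cdh11 at 0.036 for WT day 4+VC, and with day 0 without VC as the baseline 4 of the values called under either baseline had the other sign, Twist1 at 1.01 for D/KO day 2+VC, Twist1 at 0.89 for D/KO day 4+VC, Snai2 at -0.57 for WT day 2+VC and Snai2 at -0.56 for WT day 4+VC, which are other contrasts by construction. The number of the 9 that were called moved by over 1.5 times as follows. When a log2 fold change of at least 1 was also required, it was 0 for D/KO day 2, D/KO day 4, WT day 2, WT day 4, WT day 2+VC, D/KO day 4 against day 2, D/KO day 4+VC against day 2+VC, WT day 4 against day 2, WT day 4+VC against day 2+VC, VC in D/KO at day 2, VC in D/KO at day 4, VC in WT at day 2, VC in WT at day 4, the line difference at day 2, the line difference at day 4, the line difference at day 2+VC, the line difference at day 4+VC, 4F D/KO against 4F WT at day 0, DMH-1 and A83-01 against DMH-1, 1 for VC in D/KO at day 0, VC in WT at day 0, Repsox, Vactosertib, A83-01 and control D/KO against control WT, 2 for D/KO day 2+VC and TGFB, 3 for WT day 4+VC and 4 for D/KO day 4+VC. With scaling by total counts, the count was 5 instead of 8 for D/KO day 4+VC, 1 instead of 2 for D/KO day 4 against day 2, 0 instead of 1 for D/KO day 4+VC against day 2+VC, 2 instead of 4 for VC in WT at day 0, 1 instead of 2 for the line difference at day 4 and 1 instead of 2 for the line difference at day 2+VC. With DESeq2 size factors in edgeR, the count was 1 instead of 2 for D/KO day 4 against day 2. With DESeq2, the count was 1 instead of 2 for D/KO day 4 against day 2. With a fit on the compared groups alone, the count was 1 instead of 2 for D/KO day 4 against day 2, 6 instead of 3 for VC in WT at day 4, 0 instead of 1 for the line difference at day 2, 5 instead of 3 for DMH-1 and 9 instead of 5 for A83-01 against DMH-1. With the gene-length slope as a covariate, the count was 2 instead of 1 for D/KO day 4+VC against day 2+VC, 4 instead of 2 for the line difference at day 2+VC, 5 instead of 3 for the line difference at day 4+VC, 5 instead of 3 for DMH-1 and 9 instead of 5 for A83-01 against DMH-1. With no filter on low counts, the count was 5 instead of 3 for VC in WT at day 2 and 1 instead of 3 for DMH-1. With both libraries that stood apart left out, the count was 5 instead of 3 for DMH-1 and 9 instead of 5 for A83-01 against DMH-1. The shares of all genes called under these alternatives are not given here, so their counts are not set against a background. Calls lost were, with no filter on low counts, Snai2 for D/KO day 4+VC (-0.26, adjusted p = 0.12), Cdh11 for WT day 4 (-0.31, adjusted p = 0.052), Cdh11 for WT day 4+VC (-0.25, adjusted p = 0.11), Cdh11 for the line difference at day 2 (-0.49, adjusted p = 0.052), Prrx1 for Vactosertib (0.34, adjusted p = 0.13), Snai2 for Vactosertib (0.35, adjusted p = 0.12), Snai1 for A83-01 (-0.42, adjusted p = 0.076), Twist1 for DMH-1 (0.41, adjusted p = 0.10), Snai2 for DMH-1 (-0.43, adjusted p = 0.074) and Cdh11 for TGFB (-0.33, adjusted p = 0.086). A fit on the compared groups alone lost Snai2 for D/KO day 4+VC (-0.27, adjusted p = 0.11), Zeb1 for D/KO day 4+VC (-0.31, adjusted p = 0.075), Cdh2 for D/KO day 4 against day 2 (-0.39, adjusted p = 0.19), Cdh11 for VC in D/KO at day 4 (-0.31, adjusted p = 0.12), Cdh11 for the line difference at day 2 (-0.48, adjusted p = 0.096), Snai1 for 4F D/KO against 4F WT at day 0 (0.51, adjusted p = 0.061) and Zeb2 for skin (0.77, adjusted p = 0.063). The gene-length slope as a covariate ended Cdh2 for WT day 2 (-0.33, adjusted p = 0.056), Twist2 for WT day 4 (-0.24, adjusted p = 0.35), Snai1 for WT day 4 (-0.51, adjusted p = 0.091), Zeb2 for WT day 4 against day 2 (0.11, adjusted p = 0.70), Snai1 for WT day 4+VC against day 2+VC (-0.61, adjusted p = 0.065), Twist1 for VC in WT at day 0 (0.27, adjusted p = 0.064) and Snai1 for 4F D/KO against 4F WT at day 0 (0.44, adjusted p = 0.074). DESeq2 did not call Cdh2 for D/KO day 4 against day 2 (-0.38, adjusted p = 0.0535), Snai1 for 4F D/KO against 4F WT at day 0 (0.53, adjusted p = 0.059) and Cdh11 for TGFB (-0.29, adjusted p = 0.056). Calls were also gained, and these are not listed one by one. They numbered 12 with no filter (10 lost), 19 with the compared groups alone (7 lost), 30 with the gene-length covariate (7 lost) and 4 with DESeq2 (3 lost). Leaving out 1 library at a time gave a range of 1 to 4 instead of 3 for WT day 2, 3 to 5 instead of 7 for WT day 4, 1 to 2 instead of 2 for D/KO day 4 against day 2, 0 to 2 instead of 1 for D/KO day 4+VC against day 2+VC, 2 to 5 instead of 3 for WT day 4 against day 2, 1 to 2 instead of 2 for WT day 4+VC against day 2+VC, 2 to 4 instead of 4 for VC in D/KO at day 2, 2 to 5 instead of 4 for VC in D/KO at day 4, 1 to 2 instead of 3 for VC in WT at day 4, 0 to 1 instead of 1 for the line difference at day 2, 1 to 3 instead of 2 for the line difference at day 2+VC, 2 to 5 instead of 6 for Vactosertib, 1 to 2 instead of 3 for DMH-1 and 3 to 5 instead of 5 for TGFB. The gene-length covariate and the fit without both libraries that stood apart were chosen after seeing the data. The cause of the other changes was not tested. Over all 36 libraries in place of the 12 group means, the 27 most alike genes had r from 0.49 to 0.92. The lowest count of any of the 9 genes in a library was 109.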

Other observations

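Other cadherins of these cells moved in both directions. Of 21 other cadherins and catenins, 13 passed the filter, and 4 rose (all genes, 18.3%) and 4 fell (18.7%) in 4F D/KO cells at day 4, with 3 (11.7%) and 3 (12.8%) in 4F WT cells. Cdh13 (T-cadherin, which has no cytoplasmic domain) rose by 1.74 on the log2 scale in D/KO and 1.95 in WT, from a mean of 199 to 664 CPM and from 89.6 to 347 CPM. Cdh3 fell from 49.2 to 3.16 CPM in D/KO and from 107 to 8.37 CPM in WT. The cadherins Cdh18 (-1.95 and -1.05) and Cdh24 (-1.21 and -1.04) fell in both lines, and Jup (plakoglobin, a catenin of desmosomes and adherens junctions), the next in size and outside the rule for named genes, rose by 1.20 and 0.83.

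With the inhibitors, Cdh18 fell with Repsox (-1.62), Vactosertib (-1.04) and A83-01 (-1.69) and was -0.53 (adjusted p = 0.20) with DMH-1. Cdh10 was lower with all 4 compounds but rested on 19, 26 and 6 counts in the control libraries. Cdh6, singled out after its values were seen, averaged 124 CPM in the 4F WT libraries labelled TGFB against 0.27 CPM in control WT tail tip cells of the same table, and 5.001 CPM in the untreated cells of its own line in the reprogramming table, which was normalized separately.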
